A study of Homo sapiens with 6 samples.

Results

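The genes described here are 10 members of the cyclic AMP pathway: GNAS, ADCY3, ADCY6, ADCY7, ADCY9, PDE4A, PDE4B, PDE4D, PRKACA and CREM. They were taken by symbol, 10 of the 21631 symbols in the counts table, and were selected on their counts in the same 6 libraries, with the sgSEPHS2 over sgCTRL fold changes already known. Their differences between groups are therefore given as descriptions, without p-values. RNA was sequenced from A-375, an established human melanoma cell line, in 3 libraries labelled sgSEPHS2 (a guide against SEPHS2, described in the series as knockout cells) and 3 labelled sgCTRL (a control guide). No drug, hormone or time point is named for either group, so the pathway is seen as it stood in the cultures. SEPHS2 makes the selenophosphate from which selenocysteine is built. Nothing in the labels says whether the replicates were separate cultures or how many knockout clones were used, so a p-value reflects the spread among the libraries, which may be technical, and a difference in founding cells cannot be told apart from loss of SEPHS2.

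Cyclic AMP is an intracellular messenger. A hormone receptor activates the stimulatory G protein alpha subunit, encoded by GNAS, which switches on adenylyl cyclases that make cyclic AMP from ATP. Phosphodiesterases of the PDE4 group degrade it. Cyclic AMP frees the catalytic subunits of protein kinase A (PKA), among them PRKACA, which phosphorylate CREB-family factors at cyclic AMP response elements, and CREM is one of that family. In melanocytes the melanocortin receptor MC1R drives this route, which controls the pigment cell factor MITF.

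Depth was 34606145 to 43405579 counted reads per library. SEPHS2 itself was not lower in the libraries labelled sgSEPHS2, at 173 ± 3.85 CPM (reads scaled to library size with TMM factors) against 156 ± 3.32 CPM in sgCTRL libraries (SD, n = 3 each), or 0.15 ± 0.04 (SE) higher on the log2 scale (adjusted p = 0.00401 in edgeR's quasi-likelihood test; 0.07, adjusted p = 0.11, with a trend in gene length and GC content removed). Counts per gene cannot tell whether the coding sequence was disrupted, so each direction below rests on the labels. Of the 10 melanocyte lineage markers examined, SOX10 was abundant, at 569 ± 12.98 CPM in sgSEPHS2 and 619 ± 15.6 CPM in sgCTRL libraries, while TYR and DCT were below 1 CPM in every library. The summed level of the 10 ranged from 801 to 824 CPM in sgSEPHS2 and from 792 to 823 CPM in sgCTRL libraries, but single markers went both ways, 5 of them past the threshold. MITF fell by 0.35, SOX9 by 0.74 and SOX10 by 0.12 on the log2 scale, while NGFR rose by 1.97 and AXL by 0.42 (edgeR adjusted p = 1.24e-04, 1.36e-05, 0.0164, 6.88e-13 and 2.98e-08). Immune markers (3 of 5 in the table) summed to 6.52 to 7.21 CPM in sgSEPHS2 and 3.35 to 4.38 CPM in sgCTRL libraries, nearly all of it LYZ, with PTPRC and CD14 below 1 CPM throughout. Epithelial markers (3 of 4 in the table) summed to 2.00 to 2.55 CPM in sgSEPHS2 and 0.902 to 1.83 CPM in sgCTRL libraries. Of these KRT14 rose by 2.14 on the log2 scale (edgeR adjusted p = 3.26e-05), EPCAM did not pass and CDH1 was not tested. Fibroblast markers summed to 19.9 to 23.7 CPM in sgSEPHS2 and 19.8 to 23.1 CPM in sgCTRL libraries, and endothelial markers to 7.82 to 8.73 CPM in sgSEPHS2 and 8.69 to 9.52 CPM in sgCTRL libraries. Single fibroblast markers also went both ways. LUM rose by 0.76, while COL1A1 fell by 0.61 and COL1A2, below 1 CPM throughout, by 2.23 on the log2 scale (edgeR adjusted p = 2.16e-05, 4.9e-04 and 0.00208). DCN and PDGFRA did not pass. The part of these marker genes in the results below was not tested.

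Promoter windows from RefSeq (GRCh38.p14; 250 bases before to 50 after a transcript start) were at hand for 8 of the 10 members, 37 windows in all, and not for ADCY6 or ADCY9. They are shown because CREB and CREM bind the response element TGACGTCA, and because PDE4 genes and CREM are known targets of this pathway. The full element was searched on both strands, together with its core TGACG, which overlaps it. The full element was present in 1 of 5 PDE4A windows and in 2 overlapping windows of 7 for CREM, both inside the gene, where CREM is known to have an internal promoter that gives the repressor ICER. It was present in 1.85% of all 35116 windows, and the core in 24.6%. Over the 18192 windows of tested genes, which all members are, the shares were 2.56% and 30.6%. The core was present in 3 of 6 GNAS windows, 1 of 2 for PRKACA, 1 of 2 for ADCY3 and 1 of 8 for PDE4D, and in no window for PDE4B (6 windows) or ADCY7 (1 window). Matches are letters only and do not show binding. The windows below are PDE4A (chr19:10416523-10416822, plus strand), CREM (chr10:35195600-35195899, plus strand), GNAS (chr20:58888930-58889229, plus strand) and PRKACA (chr19:14117713-14118012, minus strand), 5′ to 3′, with capitals marking the full element or its core.
PDE4A: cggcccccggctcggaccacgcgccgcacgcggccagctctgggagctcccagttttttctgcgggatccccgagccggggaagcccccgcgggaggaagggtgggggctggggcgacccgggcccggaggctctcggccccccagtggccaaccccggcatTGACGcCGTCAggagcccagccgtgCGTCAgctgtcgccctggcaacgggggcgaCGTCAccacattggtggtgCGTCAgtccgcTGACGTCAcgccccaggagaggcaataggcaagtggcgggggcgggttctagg
CREM: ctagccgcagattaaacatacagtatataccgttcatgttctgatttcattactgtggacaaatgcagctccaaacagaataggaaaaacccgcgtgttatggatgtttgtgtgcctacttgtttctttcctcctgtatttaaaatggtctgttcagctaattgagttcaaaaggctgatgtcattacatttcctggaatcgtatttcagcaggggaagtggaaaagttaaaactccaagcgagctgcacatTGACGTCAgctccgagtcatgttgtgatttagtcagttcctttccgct
GNAS: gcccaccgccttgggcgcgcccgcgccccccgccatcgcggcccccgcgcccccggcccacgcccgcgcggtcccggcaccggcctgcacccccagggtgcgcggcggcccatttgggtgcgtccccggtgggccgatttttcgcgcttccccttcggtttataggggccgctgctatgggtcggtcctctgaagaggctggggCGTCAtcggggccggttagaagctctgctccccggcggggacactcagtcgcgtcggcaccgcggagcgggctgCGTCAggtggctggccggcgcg
PRKACA: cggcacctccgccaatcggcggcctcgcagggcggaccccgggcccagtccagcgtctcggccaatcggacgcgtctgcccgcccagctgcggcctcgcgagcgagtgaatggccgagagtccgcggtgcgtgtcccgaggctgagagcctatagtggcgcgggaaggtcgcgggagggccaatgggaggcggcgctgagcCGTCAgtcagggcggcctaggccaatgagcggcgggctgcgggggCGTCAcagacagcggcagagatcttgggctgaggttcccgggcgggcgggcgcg
In the PDE4A window the full element begins at base 248, across the transcript start, and 5 further cores lie outside it. In the CREM window it begins at base 253, with no core outside it.

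GNAS and PDE4B were lower in the libraries labelled sgSEPHS2, as were PDE4A, ADCY6 and ADCY9, while PDE4D was higher. ADCY3, ADCY7, PRKACA and CREM differed by at most 0.13 on the log2 scale. All 10 members passed the filter on low counts and stood above 1 CPM in every library. The groups did not overlap, in the lower direction, for 5 members (25.6% of all 16910 tested genes) and, in the higher direction, for 2, PDE4D and CREM (26.5% of all); 52.1% of all genes did not overlap in either direction. The fit across all genes put 5 members below its threshold of adjusted p 0.05 as lower (23.4% of all tested genes) and 1 as higher (22% of all), and 45.4% of all genes passed in either direction. Since the members were proposed on this contrast, nothing is read from these counts. The median log2 fold change of the members was -0.24, against 0.005 over all tested genes.

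**Figure D1:**
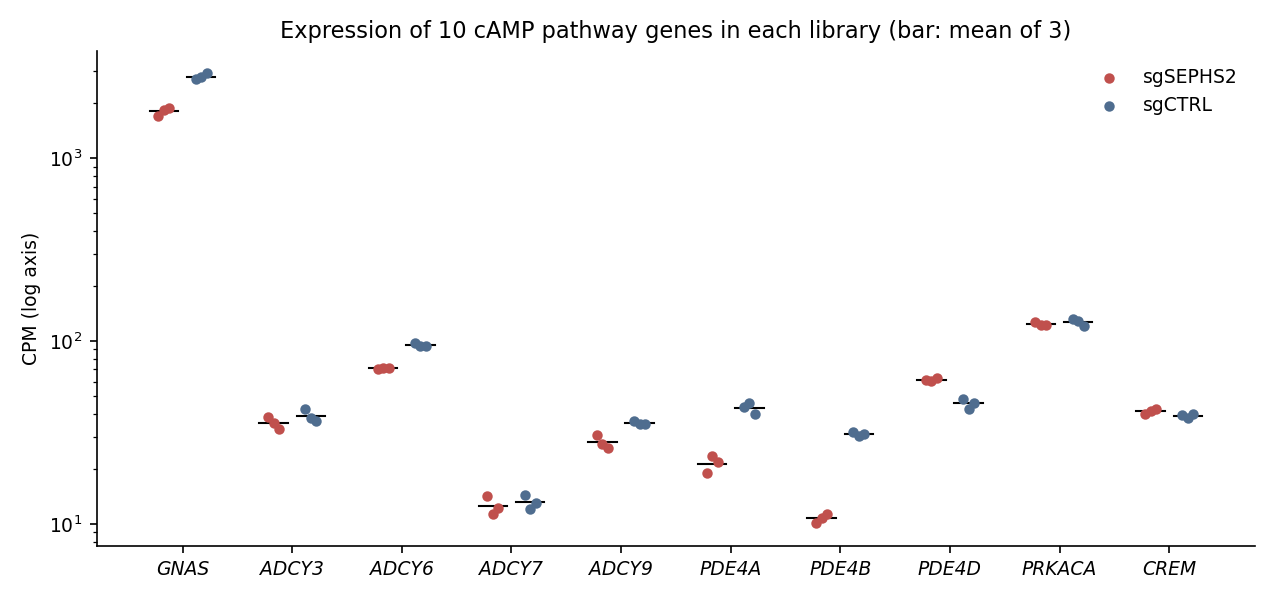
CPM of each member in each library on a log axis, sgSEPHS2 libraries left of sgCTRL libraries, with a bar at each mean of 3. The groups stand apart for GNAS, ADCY6, ADCY9, PDE4A, PDE4B and PDE4D, and narrowly for CREM.

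GNAS (ENSG00000087460.24, chr20:58839718-58911192, GRCh38, plus strand, protein-coding), the stimulatory alpha subunit that couples receptors to adenylyl cyclase, was the most abundant member and ranked 16 among the 16910 tested genes by mean CPM. It had 58408, 78965 and 75924 reads in sgSEPHS2 libraries, against 113882, 114251 and 116380 reads in sgCTRL libraries. Scaled to depth these were 1711, 1833 and 1873 CPM in sgSEPHS2 libraries, against 2702, 2767 and 2915 CPM in sgCTRL libraries. Every sgSEPHS2 library lay below every sgCTRL library. The mean was 1806 ± 84.7 CPM in sgSEPHS2 libraries and 2795 ± 109 CPM in sgCTRL libraries (SD, n = 3 each), a log2 fold change of -0.63, SE 0.04, which is 1.55 times more in sgCTRL libraries. GNAS took 0.18% of all counted reads in sgSEPHS2 libraries and 0.281% in sgCTRL libraries. With the trend in length and GC content removed the value was -0.42.

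The ratio of GNAS to PRKACA reads within a library needs no scaling between libraries. It was 1339, 1494 and 1533 GNAS reads per 100 PRKACA reads in sgSEPHS2 libraries, against 2048, 2158 and 2423 in sgCTRL libraries. That these groups did not overlap follows from the GNAS values above and the near-equal PRKACA values below, and adds no further support. GNAS is an imprinted locus with several promoters and first exons, and the gene-level count adds its transcripts together. The antisense gene GNAS-AS1 shares 1127 exon bases with it, 8.46% of its exon length, and had 3.38 ± 0.225 CPM in sgSEPHS2 and 3.23 ± 0.267 CPM in sgCTRL libraries (SD, n = 3 each; edgeR adjusted p = 0.745). Because the strand setting of the counting is not given, reads of the 2 genes in the shared bases cannot be told apart. The antisense count was small beside that of GNAS. As the treatment of shared reads is also not given, that count does not bound the antisense part in the GNAS count, which was not tested. As these are bulk libraries, fewer cells expressing a gene and less RNA per cell cannot be told apart, for GNAS or for any gene below.

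Of the 4 adenylyl cyclases among the members, ADCY6 and ADCY9 were lower in the libraries labelled sgSEPHS2. ADCY6 (chr12:48766194-48789037, minus strand), a membrane cyclase that calcium inhibits, had 70.6, 71.2 and 71.7 CPM in sgSEPHS2 libraries, against 98.2, 94.2 and 93.5 CPM in sgCTRL libraries. Its log2 fold change was -0.42, SE 0.04. The groups stood well apart, and the sgSEPHS2 libraries agreed closely with one another, with a coefficient of variation of 0.747%. ADCY9 (chr16:3953387-4116185, minus strand), a cyclase weakly sensitive to forskolin, had 30.5, 27.4 and 25.9 CPM in sgSEPHS2 libraries, against 36.5, 35.3 and 35.3 CPM in sgCTRL libraries. The groups did not overlap, and the log2 fold change was -0.36, SE 0.06, or -0.195 with the length and GC trend removed.

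ADCY3 (chr2:24819169-24919839, minus strand), the cyclase best known from olfactory cilia, had 33.1 to 38.4 CPM in sgSEPHS2 libraries and 36.4 to 42.7 CPM in sgCTRL libraries, with a log2 fold change of -0.13, SE 0.06. It was -0.07 both with the length and GC trend removed and without sgCTRL replicate 1. ADCY7 (chr16:50246137-50318135, plus strand) had 11.3 to 14.2 CPM in sgSEPHS2 libraries and 12.1 to 14.3 CPM in sgCTRL libraries, with a log2 fold change of -0.07, SE 0.09. The groups overlapped for both genes, and neither passed the threshold in the fit across all genes. ADCY3 did pass it, as lower, in some of the alternatives given at the end. Their counts are also the least certain. CENPO, on the opposite strand, covers 24.6% of ADCY3's exon length, and BRD7 covers 41.6% of ADCY7's. Both partners were higher in sgSEPHS2 libraries, CENPO by 0.32 and BRD7 by 0.24 on the log2 scale (edgeR adjusted p = 3.67e-04 and 1.05e-04), and their part in the ADCY3 and ADCY7 counts was not tested.

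Levels of different genes can be compared only per length, here as RPKM (reads per kilobase of the gene's merged exons and depth, from the CPM). Of the 10 adenylyl cyclase genes 8 had a row in the table, and the 4 members made up 97.3% to 99.1% of their summed level in every library. The sum was 18.7 ± 0.781 RPKM in sgSEPHS2 libraries and 23.4 ± 1.06 RPKM in sgCTRL libraries (SD, n = 3 each), and the groups did not overlap. As the members made up nearly all of the sum, this mostly restates the ADCY6 and ADCY9 differences above and adds no further support. ADCY6 held the largest share in both groups, 45.3% ± 2.19 in sgSEPHS2 and 48.5% ± 0.879 in sgCTRL libraries. ADCY3 followed with 31.4% ± 1.12 in sgSEPHS2 and 27.6% ± 1.06 in sgCTRL libraries. ADCY9 held 14.4% ± 0.607 in sgSEPHS2 and 14.8% ± 0.370 in sgCTRL libraries, and ADCY7 held 7.76% ± 0.654 in sgSEPHS2 and 6.51% ± 0.329 in sgCTRL libraries. Among the other cyclases ADCY1, which calmodulin activates, had the most reads, 63, 47 and 46 in sgSEPHS2 libraries against 313, 290 and 258 in sgCTRL libraries. It fell by 2.38 on the log2 scale (SE 0.17, edgeR adjusted p = 2.56e-10).

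**Figure D2:**
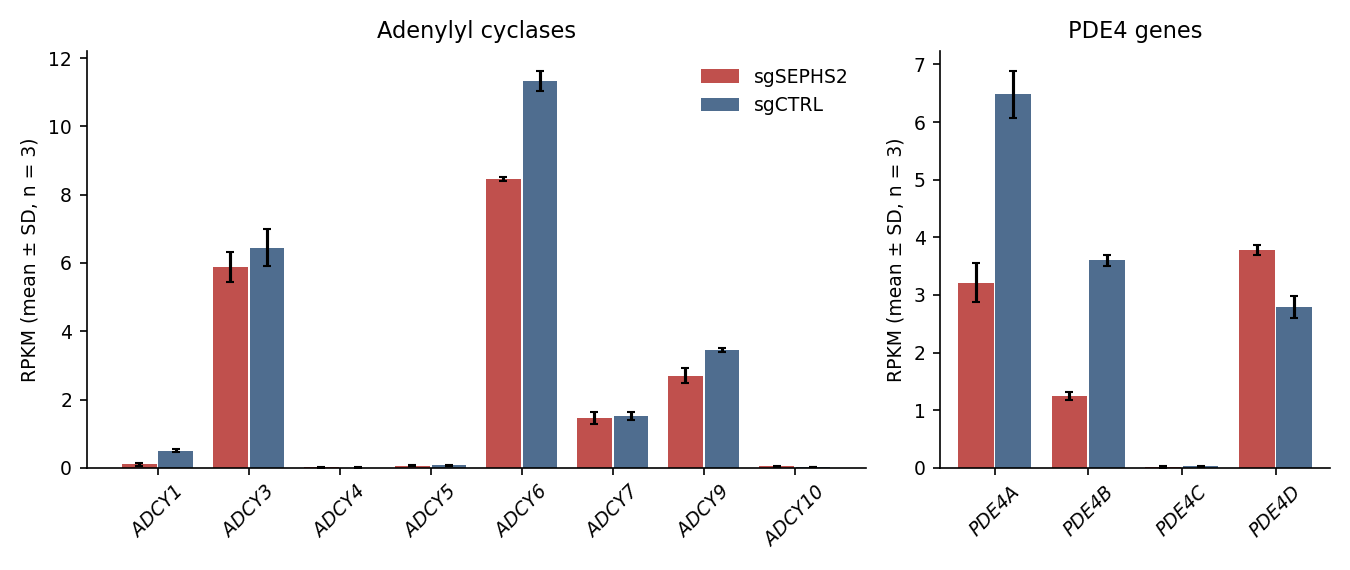
Level per length (RPKM, mean ± SD of 3 libraries) of the adenylyl cyclase genes and the PDE4 genes, sgSEPHS2 bars left of sgCTRL bars. ADCY6 leads the cyclases in both groups, while the leading PDE4 gene is PDE4D at 3.78 RPKM in sgSEPHS2 libraries and PDE4A at 6.48 RPKM in sgCTRL libraries. The order of the PDE4 genes depends on the merged exon length used.

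The PDE4 genes encode phosphodiesterases specific for cyclic AMP, and the 3 members differed in direction. PDE4B (chr1:65792514-66374579, plus strand) had 10.1, 10.8 and 11.3 CPM in sgSEPHS2 libraries, against 32.0, 30.3 and 31.1 CPM in sgCTRL libraries. It was the largest difference among the 10 members, a log2 fold change of -1.53, SE 0.07, which is 2.90 times more in sgCTRL libraries. PDE4A (chr19:10416773-10469631, plus strand) had 18.9, 23.4 and 21.7 CPM in sgSEPHS2 libraries, against 43.4, 45.6 and 40.2 CPM in sgCTRL libraries. The log2 fold change was -1.01, SE 0.07, and the highest sgSEPHS2 library lay far below the lowest sgCTRL library. PDE4D (chr5:58969038-60522120, minus strand) went the other way, with 61.2, 60.6 and 63.1 CPM in sgSEPHS2 libraries, against 48.4, 42.3 and 46.1 CPM in sgCTRL libraries. Every sgSEPHS2 library was above every sgCTRL library for PDE4D, with a log2 fold change of 0.43, SE 0.05.

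Within a library there were 606, 562 and 559 PDE4D reads per 100 PDE4B reads in sgSEPHS2 libraries, against 151, 139 and 148 in sgCTRL libraries. For PDE4D against PDE4A the ratios were 323, 258 and 291 reads per 100 in sgSEPHS2 libraries, against 112, 92.6 and 115 in sgCTRL libraries. These ratios need no scaling between libraries. Neither overlapped between groups, which follows from the CPM values above, where the groups stood apart in opposite directions, and adds no further support. The summed PDE4 level per length was 8.26 ± 0.412 RPKM in sgSEPHS2 libraries and 12.9 ± 0.363 RPKM in sgCTRL libraries (SD, n = 3 each). PDE4A made up 38.9% ± 2.37 of it in sgSEPHS2 and 50.2% ± 2.32 in sgCTRL libraries. PDE4B made up 15.03% ± 0.423 in sgSEPHS2 and 27.9% ± 0.906 in sgCTRL libraries. PDE4D made up 45.9% ± 2.33 in sgSEPHS2 and 21.7% ± 1.51 in sgCTRL libraries. The order of the genes per length therefore differed, with PDE4D at the top in sgSEPHS2 libraries and below PDE4A and PDE4B in sgCTRL libraries. This order depends on the merged exon length, 16308 bases for PDE4D against 6646 for PDE4A and 8644 for PDE4B. Before division by length PDE4D had the highest mean in both groups. In sgCTRL libraries it was 45.6 CPM, against 43.1 for PDE4A and 31.1 for PDE4B. PDE4C, the remaining gene of the group, stood under 0.04 RPKM in each library and was not tested. The lncRNA PART1, on the opposite strand, shares 227 exon bases with PDE4D, 1.39% of its exon length, and had 16.99 ± 1.51 CPM in sgSEPHS2 and 6.46 ± 0.211 CPM in sgCTRL libraries (SD, n = 3 each); its part in the PDE4D count was not tested.

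PRKACA (chr19:14091688-14118084, minus strand), the alpha catalytic subunit of PKA, had 128, 123 and 122 CPM in sgSEPHS2 libraries, against 132, 128 and 120 CPM in sgCTRL libraries. The groups overlapped, with a log2 fold change of -0.03, SE 0.04. CREM (chr10:35126791-35212958, plus strand), the CREB-family factor, had 40.0, 41.7 and 42.4 CPM in sgSEPHS2 libraries, against 39.2, 37.9 and 40.0 CPM in sgCTRL libraries. Its highest sgCTRL library lay just under its lowest sgSEPHS2 library, 39.98 against 40.01 CPM, and the log2 fold change was 0.09, SE 0.05, or 0.036 with the length and GC trend removed. CREM transcripts that encode activators and the repressor ICER are summed in this count.

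**Figure D3:**
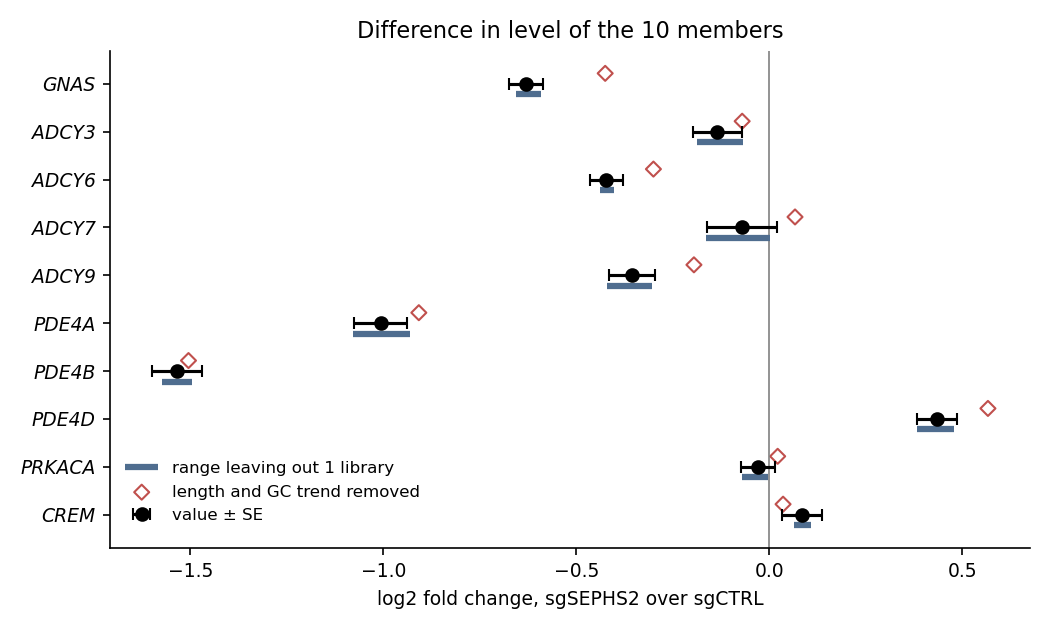
Log2 fold change (sgSEPHS2 over sgCTRL) of the 10 members with its SE, the range when 1 library is left out, and the value with the length and GC trend removed. PDE4B at -1.53 and PDE4D at 0.43 stand at the ends, and the values of PRKACA and ADCY7 lie within 1 SE of 0.

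Ordered by level per length, GNAS led in sgSEPHS2 libraries at 136 ± 6.36 RPKM, followed by PRKACA at 20.2 ± 0.500, ADCY6 at 8.46 ± 0.0632, CREM at 7.26 ± 0.214 and ADCY3 at 5.89 ± 0.443 RPKM (SD, n = 3). Then came PDE4D at 3.78 ± 0.0815, PDE4A at 3.21 ± 0.341, ADCY9 at 2.70 ± 0.227, ADCY7 at 1.45 ± 0.171 and PDE4B at 1.24 ± 0.0693 RPKM. Of these neighbours PDE4A and ADCY9 overlapped over their libraries. In sgCTRL libraries the order was GNAS at 210 ± 8.21, PRKACA at 20.6 ± 0.963, ADCY6 at 11.3 ± 0.303, CREM at 6.85 ± 0.187, PDE4A at 6.48 ± 0.413 and ADCY3 at 6.45 ± 0.539 RPKM. The last 3 of those overlapped from one to the next. PDE4B at 3.60 ± 0.0949 and ADCY9 at 3.45 ± 0.0684 RPKM overlapped as well, followed by PDE4D at 2.80 ± 0.189 and ADCY7 at 1.52 ± 0.127 RPKM. The length used merges the exons of all annotated transcripts, so a gene with many alternative exons, such as PDE4D or GNAS, is given a lower level than its main transcript would have.

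Beyond the members, 110 genes of the pathway were listed by role, also with earlier results of these data known. Of these 98 had a row in the table and 89 were tested. In the edgeR fit 37 fell and 10 rose, 52.8% of those tested. Over all tested genes 23.4% fell and 22% rose, 45.4% in either direction, and each list's counts below are to be read against those shares. The pathway genes' median log2 fold change was -0.13 against 0.005 over all. Chromosomes 13 and 18 had median log2 fold changes of -0.41 and 0.21 over their genes of at least 2 CPM; without the 3 listed genes on them, 35 fell and 10 rose of 86.

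**Figure D4:**
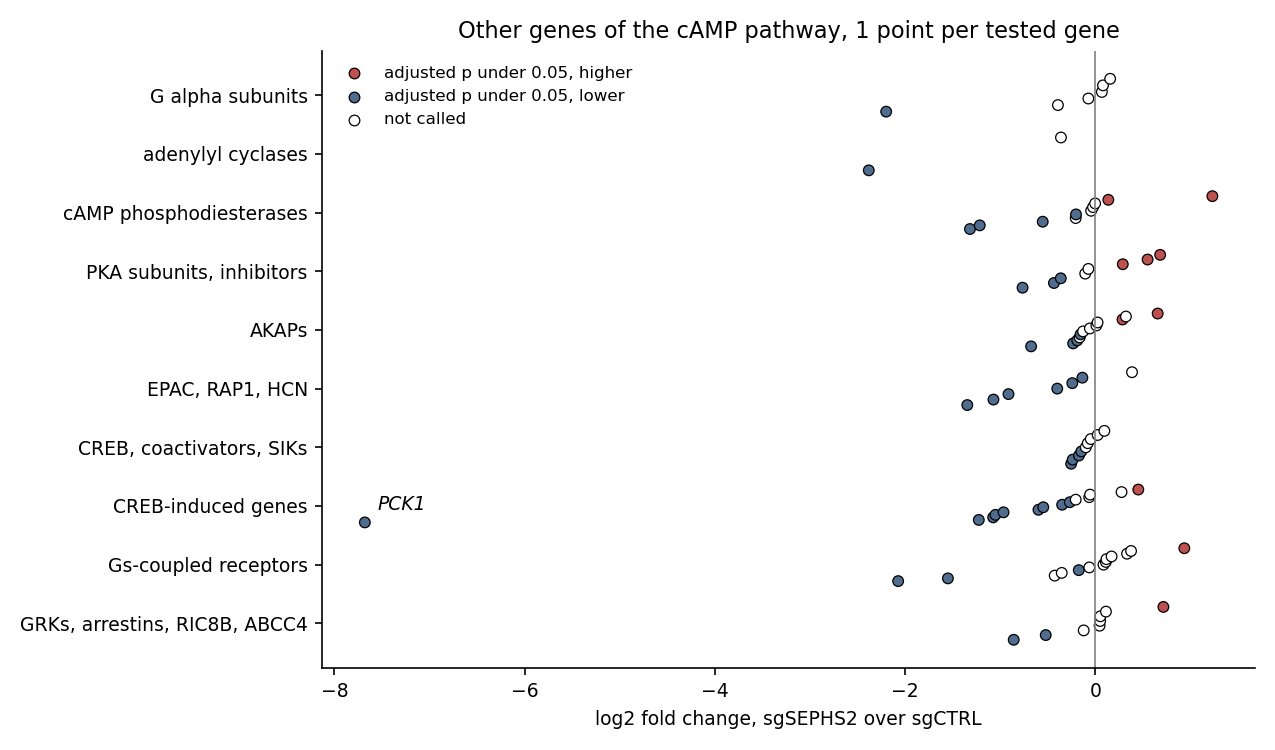
Log2 fold change (sgSEPHS2 over sgCTRL) of each of the 89 tested pathway genes that are not members, by role, with called genes filled. Blue points outnumber red ones 37 to 10, and PCK1 stands alone far below the rest; its fitted value rests on 2 reads per sgSEPHS2 library.

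Upstream, 1 of 6 tested G protein alpha subunits fell and none rose. GNAO1, an inhibitory-type subunit best known from neurons, had 16, 45 and 23 reads in sgSEPHS2 libraries against 126, 152 and 124 in sgCTRL libraries, and fell by 2.199 on the log2 scale (SE 0.24, edgeR adjusted p = 1.36e-07). Of 13 tested Gs-coupled receptors 3 fell and 1 rose. The 3 with the smallest p-values were all low. PTGER4, a prostaglandin E2 receptor, had 30, 54 and 36 reads in sgSEPHS2 against 27, 14 and 24 in sgCTRL libraries (edgeR adjusted p = 0.03). PTGIR, the prostacyclin receptor, had 1, 11 and 4 reads in sgSEPHS2 against 14, 18 and 17 in sgCTRL libraries (edgeR adjusted p = 0.0287). ADCYAP1R1, the PACAP receptor, had 2, 4 and 4 reads in sgSEPHS2 against 12, 11 and 22 in sgCTRL libraries (edgeR adjusted p = 0.00574). PTGIR lost its call without any single library other than sgSEPHS2 replicate 2 (adjusted p = 0.0509 to 0.114). PTGER4 lost its call without sgSEPHS2 replicate 2 or sgCTRL replicate 2 (adjusted p = 0.15 and 0.116), and ADCYAP1R1 without sgCTRL replicate 3 (adjusted p = 0.0543). The remaining receptor that fell, HTR7, was not as low and is named after its values were seen. HTR7 had 19.8 ± 1.23 CPM in sgSEPHS2 and 22.3 ± 1.003 CPM in sgCTRL libraries (SD, n = 3 each, edgeR adjusted p = 0.0341). MC1R, named here after its values were seen, had 10.8 ± 0.479 CPM in sgSEPHS2 and 11.3 ± 0.822 CPM in sgCTRL libraries (SD, n = 3 each; edgeR adjusted p = 0.593). Among other overlaps, MC1R shares 9.83% of its exon length with TCF25 and 21.4% with AC092143.1, both on the same strand. Their part in the MC1R count was not tested. Of 8 tested genes of receptor desensitisation, Gs folding and cyclic AMP export, 2 fell and 1 rose. ARRB1, an arrestin that uncouples receptors, fell by 0.86 and ABCC4, a cyclic AMP exporter on chromosome 13, by 0.52, while the receptor kinase gene GRK3 rose by 0.72 on the log2 scale (edgeR adjusted p = 5.13e-10, 2.34e-07 and 1.85e-04).

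Among the other phosphodiesterases, 4 of 10 tested fell and 2 rose. PDE3A, which cyclic GMP inhibits, fell to 48.5 ± 5.75 CPM in sgSEPHS2 libraries, against 113 ± 2.40 CPM in sgCTRL libraries (SD, n = 3 each; log2 fold change -1.21, SE 0.06, edgeR adjusted p = 7.99e-13). PDE1C, a calmodulin-dependent enzyme, fell to 272 ± 10.9 CPM in sgSEPHS2 libraries, against 399 ± 6.96 CPM in sgCTRL libraries (log2 fold change -0.55, SE 0.04, edgeR adjusted p = 6.62e-10). PDE2A, which cyclic GMP stimulates, rose but stayed low, with 5.17 ± 0.480 CPM in sgSEPHS2 and 2.199 ± 0.0978 CPM in sgCTRL libraries (log2 fold change 1.23, SE 0.14, edgeR adjusted p = 3.99e-07). The counts of PDE10A, another of the 4 that fell, were identical to those of LINC00473 and are uncertain. Per length, the 15 cyclic AMP phosphodiesterase genes with an annotated length summed to 52.4 ± 1.75 RPKM in sgSEPHS2 and 73.7 ± 0.731 RPKM in sgCTRL libraries. PDE10A is among them, with 8.23% ± 0.461 in sgSEPHS2 and 6.73% ± 0.137 in sgCTRL libraries. The sum and the shares therefore carry its uncertainty. PDE1C was the largest part in both groups, 37.6% ± 2.03 in sgSEPHS2 and 39.1% ± 0.302 in sgCTRL libraries. PDE4 genes together made up 15.3% to 16.4% in sgSEPHS2 and 17.02% to 17.8% in sgCTRL libraries.

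Of 8 tested PKA subunits and inhibitor peptides other than PRKACA, 3 fell and 3 rose. PRKAR1A, the main type I regulatory subunit, fell to 612 ± 10.7 CPM in sgSEPHS2 libraries, against 787 ± 24.3 CPM in sgCTRL libraries (SD, n = 3 each; log2 fold change -0.36, SE 0.04, edgeR adjusted p = 2.43e-07). Its paralog PRKAR1B rose by 0.55 and the inhibitor peptide gene PKIA fell by 0.77 on the log2 scale (edgeR adjusted p = 3.41e-07 and 7.76e-06). Per length, PRKACA held 12.7% ± 0.169 of the summed level of 6 PKA subunit genes in sgSEPHS2 and 11.4% ± 0.675 in sgCTRL libraries. PRKAR1A held 56.4% ± 1.53 in sgSEPHS2 and 63.8% ± 1.04 in sgCTRL libraries. Of 12 tested A-kinase anchoring proteins, which tether PKA, 4 fell and 2 rose. AKAP11, on chromosome 13, fell by 0.68, AKAP8L fell by 0.23 and AKAP5 rose by 0.66 on the log2 scale (edgeR adjusted p = 3.66e-10, 3.77e-04 and 2.23e-04).

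In the PKA-independent arm and the cyclic nucleotide-gated HCN channels, 6 of 7 tested genes fell and none rose, against 23.4% and 22% of all tested genes. RAPGEF4, which encodes the cyclic AMP-activated exchange factor EPAC2, fell to 4.61 ± 0.712 CPM in sgSEPHS2 libraries, against 11.7 ± 0.380 CPM in sgCTRL libraries (SD, n = 3 each; log2 fold change -1.35, SE 0.11, edgeR adjusted p = 2.26e-09). RAP1B, a GTPase that EPAC activates, fell by 0.24 and the channel gene HCN2 by 1.07 on the log2 scale (edgeR adjusted p = 4.43e-05 and 5.33e-05). RAP1B was at -0.106 with the length and GC trend removed (adjusted p = 0.0266).

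In the nucleus, 4 of 9 tested CREB-family genes, coactivators and salt-inducible kinases fell and none rose. The kinase gene SIK3, the CREB coactivator CRTC1 and the acetyltransferase CREBBP fell by 0.24, 0.25 and 0.17 on the log2 scale (edgeR adjusted p = 8.97e-04, 0.001 and 0.00417). All 3 calls were lost with the length and GC trend removed, where the values were -0.11 for SIK3, -0.07 for CRTC1 and 0.04 for CREBBP (adjusted p = 0.0844, 0.309 and 0.461). Of 14 tested genes known to be induced through CREB, 9 fell and 1 rose. The orphan receptor gene NR4A2 fell to 20.4 ± 2.39 CPM in sgSEPHS2 libraries, against 31.0 ± 0.491 CPM in sgCTRL libraries (SD, n = 3 each; log2 fold change -0.60, SE 0.07, edgeR adjusted p = 4.20e-07). GEM, a small GTPase of the RGK group, fell to 5.72 ± 0.241 CPM in sgSEPHS2 libraries, against 13.4 ± 0.764 CPM in sgCTRL libraries (log2 fold change -1.22, SE 0.09, edgeR adjusted p = 6.33e-10). PCK1, the gluconeogenic enzyme gene that the study's title also names, had 2 reads in each sgSEPHS2 library against 391, 473 and 502 in sgCTRL libraries (edgeR adjusted p = 1.91e-15). FOS, an immediate early gene and the one that rose, was named after its values were seen, with 35.7 ± 7.05 CPM in sgSEPHS2 and 26.1 ± 4.34 CPM in sgCTRL libraries (SD, n = 3 each; edgeR adjusted p = 0.00193). The FOS groups overlapped. These genes answer to other signals as well.

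None of the 10 members lies on chromosome 13 or 18. For GNAS, the 333 other genes of chromosome 20 with at least 2 CPM had a median log2 fold change of -0.02. Its 20 such neighbours, the nearest 10 by start position on each side, had a median of -0.005. Of these neighbours 8 fell, 3 rose and 9 did not pass (23.4% and 22% of all tested genes fell and rose). On the left, PCK1, PMEPA1, NKILA and STX16 fell, the last 3 by 1.35, 1.01 and 0.28 on the log2 scale (edgeR adjusted p = 9.46e-14, 1.71e-05 and 1.07e-05). The 4 genes that follow GNAS on its right, singled out after their values were seen, all fell. They are CTSZ, a lysosomal protease gene, at -0.93, TUBB1 at -0.75, ATP5F1E, an ATP synthase subunit gene, at -0.31 and PRELID3B at -0.66 (edgeR adjusted p = 3.03e-12, 3.89e-05, 3.71e-05 and 1.02e-10). The next, SYCP2, had 0.02 (adjusted p = 0.894), and GNAS-AS1, next on the left, 0.07. Among the neighbours that fell, TUBB1 overlaps ATP5F1E in position and NKILA overlaps PMEPA1. The part of any shared reads in their counts was not tested. PDE4B was lower than each of its 20 neighbours, taken in the same way, whose values ran from -0.63 to 0.51 with a median of -0.007. PDE4A had 1 neighbour lower than itself, with a neighbour median of -0.03, and 17 of 20 neighbours lay below PDE4D, with a neighbour median of 0.14.

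**Figure D5:**
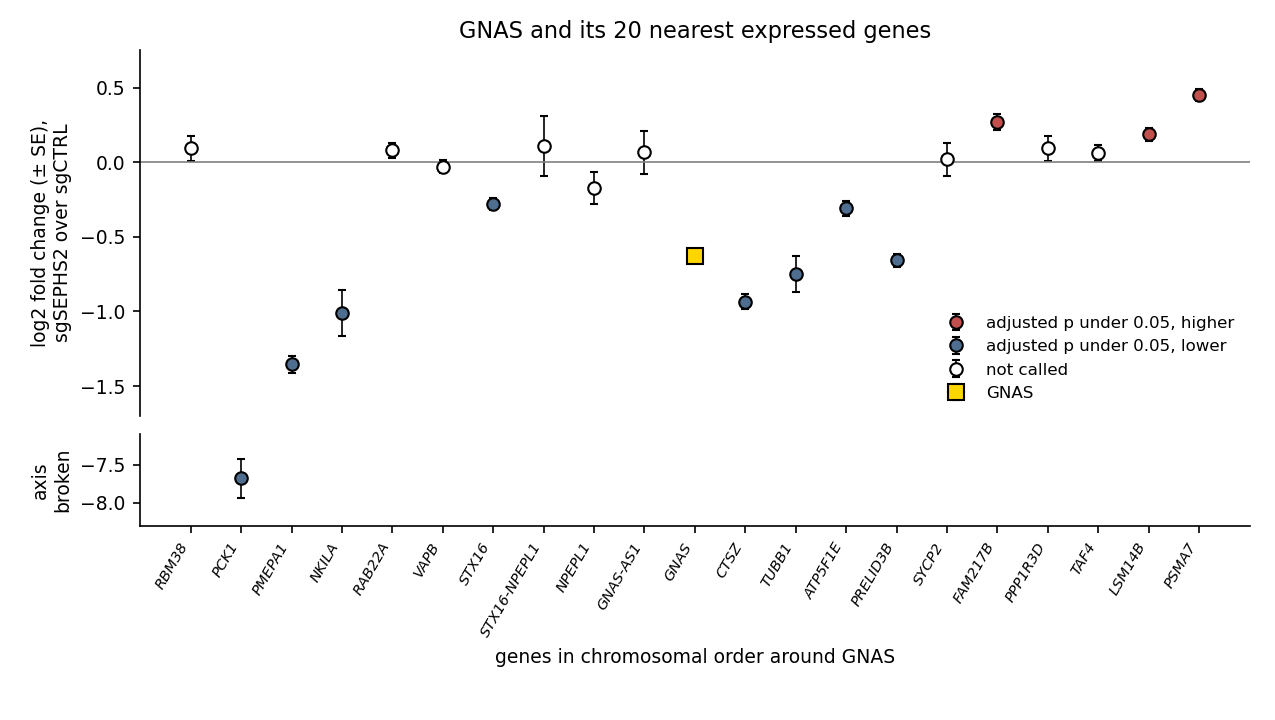
Log2 fold change (sgSEPHS2 over sgCTRL) ± SE of GNAS and 20 neighbours with at least 2 CPM, the nearest 10 on each side, in chromosomal order. The axis is broken for PCK1, whose fitted value rests on 2 reads per sgSEPHS2 library. GNAS at -0.63, the 4 genes to its right and 4 genes farther to its left are called lower, and the genes beyond those on the right lie near or above 0.

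Among the 5 genes whose pattern over the 6 libraries was nearest to that of GNAS, by Euclidean distance between centred log2 CPM values among 10993 genes of at least 5 CPM, were TIMP1, IL13RA2, ITM2B and TRIB2. Their distances ran from 0.0697 for TIMP1, a metalloproteinase inhibitor gene, to 0.0890 for TRIB2, a pseudokinase gene. These 4 were lower in the libraries labelled sgSEPHS2 by nearly the amount GNAS was, from -0.60 for IL13RA2 to -0.66 for TRIB2 on the log2 scale. With 6 libraries in 2 groups, this likeness reflects mostly a difference between groups of the same size. TIMP1 and IL13RA2 lie on chromosome X, ITM2B on chromosome 13 and TRIB2 on chromosome 2.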

How the data were processed

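The authors deposited unnormalized whole-number counts of reads, 1 row for each gene symbol. Per the submitters' processing notes the tools were featureCounts 2.0.6 (Subread), HISAT2 2.2.1, SAMtools 1.21 and FastQC 0.12.1, and the build GRCh38; annotation, strandedness and the treatment of shared reads were not given in the sources used here. Groups and replicate numbers came from the sample titles. Counts were fitted with edgeR 4.0.16 in R 4.3.3 (TMM scaling, filterByExpr by group, two-sided quasi-likelihood test, Benjamini-Hochberg adjustment over 16910 tested genes; 4721 were left out). A gene was called at an adjusted p under 0.05. Each log2 fold change is sgSEPHS2 over sgCTRL. The members and lists were chosen with earlier results of these data known. Besides the members and SEPHS2, the genes named were up to 3 called genes per list by smallest adjusted p and the 5 nearest to GNAS (log2 CPM with a prior count of 2), of which 1 is not reported here. Positions, merged exon lengths and GC content came from GENCODE release 29 (GRCh38), matched for 18922 of 21631 symbols, and promoters from RefSeq (GRCh38.p14). Shares over all cyclic AMP phosphodiesterases and PKA subunits were added after the values were seen. A comparison of protein sequences was planned and is not reported here.

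Alternatives were DESeq2 1.42.0, limma-voom (limma 3.58.1), upper-quartile or RLE scaling, no filter on low counts or a filter of 1 CPM in 3 libraries, the replicate block, leaving out each library, an adjusted p under 0.01, and removal of a smoothed dependence on GC content and exon length (mgcv 1.9.3; 90.2% of tested genes had both). On simulated counts for this comparison, with 200 genes changed among 16697 run, edgeR recovered 44% of the genes set to a fold of 1.2, 62% of those at 1.5, 84% of those at 2 and 96% of those at 4, with 10 false calls of 153. In the data 45.4% of tested genes were called, a far larger share than was changed in the simulation. The adjustment depends on that share, so these rates may not carry over. Depth of 34606145 to 43405579 reads leaves low genes with few reads, among them PTGER4, PTGIR and ADCYAP1R1. Figures were drawn with matplotlib 3.10.9.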

Additional observations from a re-analysis of the deposited data

How the results depend on the processing

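With the length and GC trend removed the log2 fold change was -0.425 for GNAS, -0.30 for ADCY6, -0.195 for ADCY9, 0.567 for PDE4D and 0.036 for CREM, each further from the value reported than the spread between libraries, and the cause was not tested. The same step gave 0.07 for ADCY7 and 0.02 for PRKACA, on the other side of 0 from values that were already within about 1 SE of it. The other members stayed within that spread under each alternative run. With 1 library left out, GNAS ranged from -0.66 to -0.59, PDE4B from -1.57 to -1.50, PDE4A from -1.08 to -0.93, PDE4D from 0.38 to 0.48, ADCY6 from -0.44 to -0.40 and ADCY9 from -0.42 to -0.30, while ADCY7 ranged from -0.16 to 0.001.

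ADCY3 passed the threshold as a further lower member without sgSEPHS2 replicate 1, without sgCTRL replicate 3 and with the replicate block.

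Among all genes the number called was 5863 to 7774 over the alternatives, against 7673. Of the other pathway genes, 6 rose with DESeq2 and 6 at an adjusted p under 0.01, against 10 in the edgeR fit, and 34 and 30 fell in those settings, against 37. With 1 library left out, 7 to 10 rose and 31 to 37 fell. With the length and GC trend removed, 14 rose and 32 fell. Of SEPHS2 and the genes named by rule from the lists, 27 in all, 20 kept direction and call under every alternative run. CREBBP changed sign with the length and GC trend removed (0.038), and SEPHS2, SIK3 and CRTC1 lost their calls there. PTGIR and PTGER4 lost theirs with DESeq2 (adjusted p = 0.0711 and 0.0565).

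Libraries with the same replicate number did not deviate together, with correlations of 0.01, -0.09 and -0.25 across genes, and not every sample correlated best with its own number. With the replicate number as a block 7774 genes were called, and of the other pathway genes 9 rose and 38 fell; PTGER4 lost its call (adjusted p = 0.0551).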
